A study of Mus musculus with 13 samples.

Results

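The killer cell lectin-like receptor genes of the mouse were followed through single cells of thymus and spleen profiled with split-pool barcoding (Parse). All genes of the deposited gene lists whose symbols start with Klra, Klrb, Klrc, Klrd, Klre, Klrg, Klri or Klrk were taken, pseudogenes marked -ps left out, which gave 26 of 57010 genes: 11 Klra, 5 Klrb, 3 Klrc, 2 Klrg and 2 Klri genes with Klrd1, Klre1 and Klrk1. The larger pool, Parse WT, held 128624 cells of 20 tissue samples spread over 9 sublibraries. Per the labels, its immune cells came from thymus and spleen, under control and chronic stress conditions. The samples tenxP_1 to tenxP_4 were taken as thymic lobes, since their cell numbers and gene totals match those of the thymi described in the methods. For the other 16 (YD_C_1 to YD_C_5, CVS_C_1 to CVS_C_5 and CVS_S_1 to CVS_S_6) no label here gives the tissue, age, strain or treatment of each, so their values are listed per sample and no comparison treats them as replicates of a condition. The paper calls the 16 further samples of this library non-thymic and unrelated to its benchmark. The smaller pool, Parse Mini, held 20085 cells of 4 thymic samples (T-1-A, T-1-B, T-2-A and T-2-B) labelled control, in 2 sublibraries. Per the study's methods the thymi were those of 2 female C57BL/6N mice of 2 months, with each lobe handled as a sample, and the Mini run repeated that set-up. Lobes are therefore not independent animals.

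These genes encode type II membrane receptors of the C-type lectin fold, found mainly on natural killer (NK) cells and on subsets of T cells, and most of them lie side by side in the NK gene complex. Members with an immunoreceptor tyrosine-based inhibition motif (ITIM) in the cytoplasmic tail recruit phosphatases and restrain the cell, while activating members lack one and signal through adaptor proteins such as DAP12 (Tyrobp) or DAP10 (Hcst). Klrd1 and Klre1 are partner chains that take part in both kinds of receptor. The Klra genes encode the Ly49 receptors, many of which read classical MHC class I, and they are known for variegated use, each NK cell carrying its own subset. Klrd1 (CD94) pairs with the NKG2 chains of the Klrc genes to read Qa-1, Klrk1 is NKG2D, the Klrb1 genes encode NKR-P1 receptors for Clr ligands, Klri1 and Klri2 each pair with Klre1, and Klrg1 reads cadherins.

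All 26 genes lie on chromosome 6 of GRCm38 in the GENCODE M21 annotation. Klrg2 lies apart (chr6:38625693-38637242, minus strand), Klrg1 lies at chr6:122270596-122282882 on the minus strand, and the other 24 lie between Klrb1a (chr6:128609227-128623533, minus strand) and Klra2 (chr6:131219223-131247362, minus strand). The start of the coding sequence is shown for 4 Klra genes, since it separates Ly49 receptors with an ITIM from those without. The 36 bases begin at coding base 7 of the GENCODE M21 transcripts. In the Klra3 line the capitals mark the tyrosine codon of the ITIM, and in the other lines they mark the bases that differ from Klra3.
Klra3: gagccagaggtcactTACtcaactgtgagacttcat
Klra7: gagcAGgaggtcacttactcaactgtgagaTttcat
Klra4: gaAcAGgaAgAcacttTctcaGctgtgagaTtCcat
Klra8: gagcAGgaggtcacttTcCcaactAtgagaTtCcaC
Counted from 1 at the first base shown, Klra4 and Klra8 both carry A17T, which turns the tyrosine codon into another, and neither has an ITIM in its first 40 codons. The other 9 Klra genes have one. The ITIM stretches of the inhibitory NKG2A gene Klrc1 and of Klrg1 are shown for comparison, with the tyrosine codon in capitals.
Klrc1: gtcaccTATgcagaactg
Klrg1: tctatcTATtcaacacta
In all, 14 of the 26 members had an ITIM in the first 40 codons, among them Klri1, Klrb1b and Klrb1, and none was found there in Klrk1, Klrd1, Klre1, Klri2, Klrc2, Klrc3, Klrb1a, Klrb1c or Klrb1f.

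The members resemble each other, which bears on every count below. Klra coding sequences were 71.4% to 96.9% identical over 55 pairs, the highest between Klra9 and Klra10. Of the 50-base words in its transcripts, Klra10 shared 39.8% with another gene, most often Klra9, Klrc1 shared 38.6% and Klrc3 36.3%, both most often with Klrc2, and Klra8 shared 33.1%, most often with the pseudogene Klra14-ps. The shares were 31.5% for Klra9, 20.7% for Klra3 and 12.3% for Klra7, and 0% for Klrk1, Klrd1, Klrg1, Klrb1f, Klra2 and Klra17. Klrb1b shared 27.2% and Klrb1c 17.0%, both most often with Gm44511. UMIs (unique molecular identifiers, which count captured transcripts) of Klra3, Klra7, Klra8, Klra9, Klra10, Klrb1b, Klrb1c and the 3 Klrc genes may therefore have been split or lost between neighbours and are uncertain as single genes.

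Promoter sequence from RefSeq (GRCm38.p6, 250 bases before and 50 after each start) was given for 23 of the 26 members. The 8-base word held by the most Klra promoters was CCTCTTTT, searched on both strands after it had been picked from these promoters. It occurred in 9 of 11 Klra genes, in no other member, and in 2.25% of all 27025 genes. Windows around its last copy before the start are shown for 4 genes, Klra3 and Klra7 from the NK side and Klra2 and Klra17, which were highest in other cells, with the word in capitals. All 4 are read on the minus strand, from chr6:130337627-130337678, chr6:130233393-130233444, chr6:131247415-131247466 and chr6:129876728-129876779 in this order.
Klra3: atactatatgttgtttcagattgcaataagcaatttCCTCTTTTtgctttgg
Klra7: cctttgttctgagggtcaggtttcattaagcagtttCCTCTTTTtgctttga
Klra2: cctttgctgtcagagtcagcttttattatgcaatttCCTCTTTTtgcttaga
Klra17: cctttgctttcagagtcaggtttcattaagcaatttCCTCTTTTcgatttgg
The word thus stood in Klra genes of both patterns of expression. The core of RUNX sites, TGTGGT on either strand, occurred in 8 of 23 members and in 18.9% of all genes, and among the Klra genes only in Klra1. The T-box site GGTGTGA occurred in Klra1 alone among the members and in 4.60% of all genes. These matches are letters in a window, not binding sites.

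Cells were grouped into classes from clusters made without the 26 genes and named from marker genes. In the 16 other samples 77334 cells were kept, of which 1003 formed the NK-like class, in a cluster of 747 cells led by Gzma, Ncr1 and Itga2 and a cluster of 256 cells led by Col19a1, Atp2b2 and Ncr1. All 18 NK marker genes were raised in the first cluster and 17 in the second. The T cell genes Cd3d, Cd3e and Cd3g, which NK cells lack at the surface, had a UMI in 9.23% of the NK-like cells with a Klra UMI and 12.2% of those without. A cell of the NK-like class had a median of 1570 UMIs outside ribosomal RNA, against 1802 in the 6067 CD8 T-like and 2375 in the 39285 B-like cells. Levels are given as CPM, the UMIs of a gene scaled by all UMIs of the same cells outside ribosomal RNA. Clusters of 277 and 65 cells, with Ncr1 and Gzma among their leading genes, also raised B cell or CD8 T cell markers and stayed unnamed. Their Klrk1 levels were 157 and 230 CPM. In Parse WT, 19867 of 103602 combinations of well barcodes recurred in 2 or more sublibraries, and in Parse Mini 1360 of 18725, while no full barcode was repeated.

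NK-like cells held most of the family. The 26 genes summed to 3477 CPM in NK-like cells, 118 CPM in CD8 T-like cells and 12.6 CPM in B-like cells, which serve here as a class of low signal. The leading member in B-like cells was Klrb1f, at 3.404 CPM. Whether their signal was stray RNA or low expression was not tested. A UMI of any member was found in 95.9% of NK-like cells (95% exact interval, 94.5% to 97.0%), in 17.5% of CD8 T-like cells and in 3.30% of B-like cells. Over the 9 sublibraries, which split the same cells, the sum in NK-like cells was 3420 ± 274 CPM (SD, n = 9), a technical spread. Klra6 and Klrg2 had no UMI in NK-like cells, and 16 members had at least 50.

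**Figure D1:**
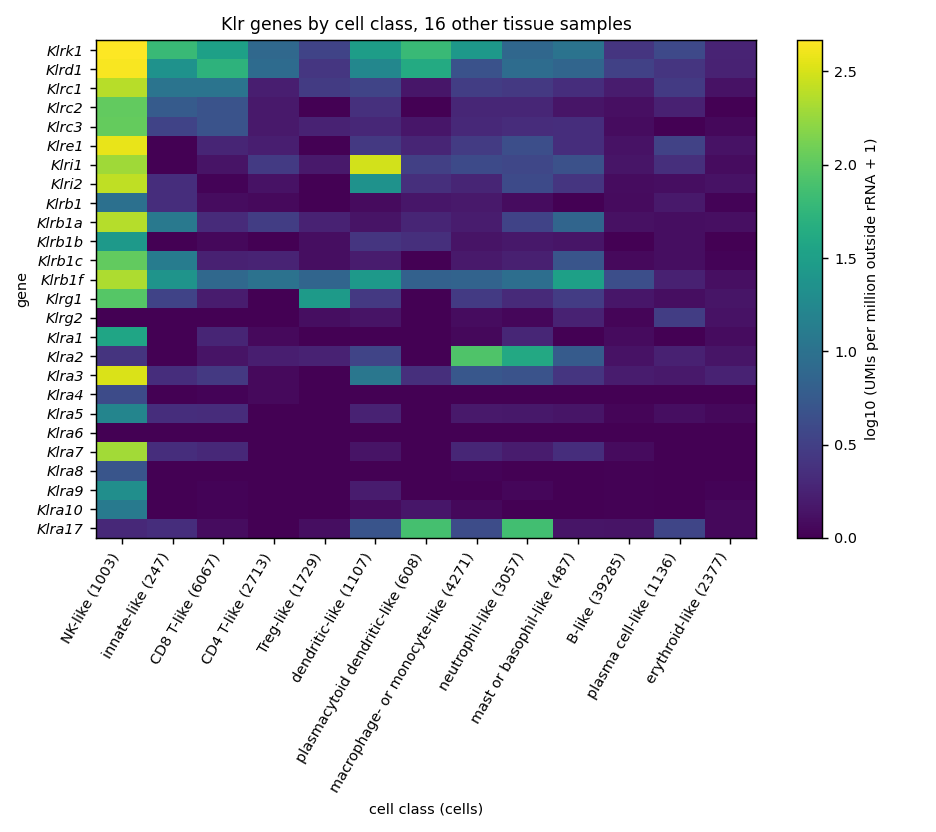
Level of each of the 26 Klr genes (rows) in each cell class (columns, number of cells in parentheses) of the 16 other tissue samples, as log10 of CPM plus 1. NK-like cells were bright for most genes, Klri1 was brightest in dendritic-like cells, and Klra2 and Klra17 were brightest in myeloid and plasmacytoid classes.

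Both classes had at least 30 cells in 6 tissue samples, CVS_C_1 and YD_C_1 to YD_C_5, with 822 NK-like and 4042 CD8 T-like cells in all. A gene counted as higher when its CPM was higher in NK-like cells in all 6 samples and at least 2-fold over the summed cells. Of 10014 genes with 50 or more UMIs, 571 (5.7%) were higher and 637 (6.36%) lower, and the 2 classes did not overlap, with NK-like cells above, for 559 (5.58%). Of the 15 members with enough UMIs all 15 were higher and none overlapped, with a median fold of 142 against 0.998 over all genes. Members with UMIs in NK-like cells pass this filter through the class where they are high, so the count is a description. The other 11 members, Klrb1b among them, had too few UMIs in the 6 samples. CD8 T-like cells of CVS_C_1 were 80 cells with a median of 836 UMIs, so a single UMI there counts 11.8 CPM. The 31 NK-like cells of CVS_C_1 held 47828 UMIs outside ribosomal RNA, so a single UMI there counts 20.9 CPM.

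The 2 genes of the highest CPM in NK-like cells were also the most widely used. Klrd1, the CD94 chain, had 335, 449 and 541 CPM as lowest, median and highest NK-like sample, against 42.9 to 62.2 in CD8 T-like cells, an 8.50-fold difference. Klrk1, the NKG2D gene, had 251, 462 and 593 CPM, against 20.0 to 70.8, an 18.3-fold difference. These 2 genes had the smallest folds of the 15 and the highest levels in CD8 T-like cells, and each had a UMI in about the same share of NK-like cells, 50.5% for Klrd1 and 50.9% for Klrk1. Per kilobase of exon Klrd1 ranked highest of all members in NK-like cells, at 340 CPM per kb, and Klrk1, whose exons are longer, stood at 64.4.

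The NKG2 partners of CD94 were raised together. Klrc1, the inhibitory NKG2A chain, had 188, 235 and 285 CPM in NK-like cells and at most 7.59 in CD8 T-like cells. Klrc2 had 20.9, 110 and 126 CPM and Klrc3, the NKG2E gene, 20.9, 103 and 143 CPM, both lowest in CVS_C_1, with folds of 56.4 and 75.5. Each of these lowest values is a single UMI. Among UMIs of the 3 Klrc genes in NK-like cells, 52.9% (49.5% to 56.2%) came from Klrc1, which carries the ITIM. This share rests on genes that share sequence words.

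Klre1 and the Klri genes had the highest folds over the summed cells among the 15 members tested, on few UMIs in CD8 T-like cells. Klre1, the partner chain, had 209, 387 and 456 CPM, a fold of 604, and at most 23.6 CPM in CD8 T-like cells, reached in CVS_C_1. Klri1 had 130, 207 and 295 CPM on 333 UMIs against 2 in CD8 T-like cells, a fold of 950 with a counting interval of 261 to 7879. Klri2 had 216, 233 and 335 CPM on 420 UMIs against 1, a fold of 2397 with an interval of 428 to 94904. The interval of Klre1, 276 to 1652, overlapped with that of Klra7, 117 to 545. Counting intervals here cover counting error only.

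Of the NKR-P1 genes, Klrb1a reached 125, 251 and 291 CPM, Klrb1f 146, 182 and 329 CPM and Klrb1c, the NK1.1 gene of C57BL/6 mice, 20.9, 102 and 154 CPM. Klrb1b had 0, 23.7 and 43.9 CPM in the 6 samples and no UMI in their CD8 T-like cells. Klrb1, with 12 UMIs in NK-like cells of the 6 samples, was at 0 in YD_C_2 to YD_C_5, at 20.3 CPM in YD_C_1 and at 20.9 in CVS_C_1. The value in CVS_C_1 is a single UMI, as is the lowest value of Klrb1c. Klrg1, an inhibitory receptor of mature NK cells, had 41.8, 98.0 and 120 CPM against a median of 0.213 in CD8 T-like cells, whose highest value, 23.6 CPM in CVS_C_1, rests on few UMIs.

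Among the Klra genes, Klra3 (Ly49C) and Klra7 (Ly49G) led. Klra3 had 105, 358 and 417 CPM and a fold of 174, Klra7 had 141, 187 and 252 CPM and a fold of 233, and Klra1 (Ly49A) 21.4, 32.7 and 55.3 CPM and a fold of 30.6. Klra3 in CVS_C_1, at 105 CPM, stood apart from the other 5 samples, which lay between 330 and 417. The remaining Klra genes were low in NK-like cells: 39 UMIs for Klra9, 30 for Klra5, 22 for Klra10, 8 for Klra8, 6 for Klra4, 3 for Klra2, 2 for Klra17 and 0 for Klra6. Of 1211 Klra UMIs, 1197 came from genes with an ITIM, a share of 98.8% (98.1% to 99.4%), so the activating receptors Klra4 (Ly49D) and Klra8 (Ly49H) supplied 14. Klra8 is the receptor of C57BL/6 mice for a cytomegalovirus protein. Its 8 UMIs were 0.661% of the Klra UMIs of NK-like cells, while in innate-like thymocytes of the WT lobes, described below, it supplied 32 of 419, or 7.64% (5.28% to 10.6%), and in those of Parse Mini 5 of 259, or 1.93% (0.630% to 4.45%). The strain of the samples that held the NK-like cells is not labelled, so cell class and strain cannot be told apart here.

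**Figure D2:**
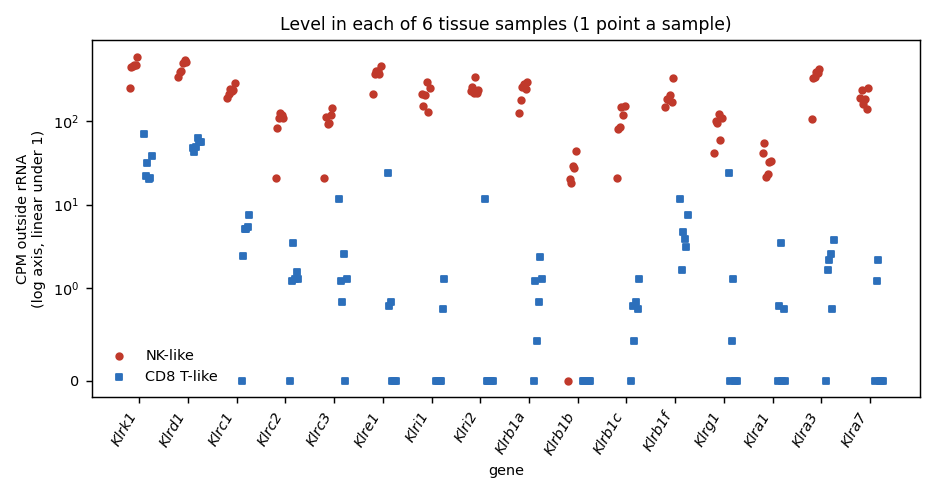
CPM of the members in each of 6 tissue samples (1 point a sample) in NK-like cells (red circles) and CD8 T-like cells (blue squares), on an axis that is logarithmic above 1. For the 15 members tested, the red points lie above all blue points, and Klrk1 and Klrd1 have the highest blue points, at 70.8 and 62.2 CPM.

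The 2 NK-like clusters differed in members of the Klrb and Klrg groups. In the cluster of 747 cells Klrg1 stood at 119 CPM, Klrb1c at 141, Klrb1a at 297 and Klrb1b at 35.57, and in the cluster of 256 cells at 28.1, 28.1, 86.1 and 6.62. Klrb1a and Klrb1c were higher in the larger cluster in each of YD_C_1 to YD_C_5, and Klrg1 likewise, though only narrowly in YD_C_4, at 60.5 against 56.9 CPM. Klrb1f ran the other way, at 187 against 285 CPM. Klra3 was close in both, at 347 and 290 CPM. The clusters were formed from genes of the same cells, so these are descriptions, and the smaller cluster held only 20 to 65 cells in each of these samples.

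Klra genes were found in some NK-like cells and not in others. A UMI of any Klra gene was found in 51.8% of NK-like cells (48.7% to 55.0%), with 41.9%, 54.6% and 60.9% as lowest, median and highest of the 6 samples, against 0.857% of CD8 T-like and 0.603% of B-like cells. Depth limits this share, as a cell with a Klra transcript may yield no UMI. After each cell was thinned to 2000 UMIs, which left 351 of the 1003 NK-like cells and dropped the shallower ones, 48.1% had no Klra gene, 36.2% had 1, 14.0% had 2 and 1.71% had 3. The mean was 0.692 Klra genes a cell, and the share of thinned B-like cells with a Klra UMI was 0.308%. Counted over the whole family, a thinned NK-like cell showed a median of 4 members.

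Single genes differed in how they were spread over NK-like cells. Klra3 had a UMI in 33.0% of cells and Klra7 in 21.8%, with up to 8 and 9 UMIs in a cell. At equal depth the variance over mean of Klra7 was 2.18, which is 1.89 times the median of genes of similar level and higher than 98.9% of them. The ratio to similar genes was 1.38 for Klra1, 1.36 for Klra3, 1.35 for Klrg1, 1.32 for Klri2 and 1.26 for Klri1. It was 1.01 for Klrk1, 0.946 for Klrd1 and 0.877 for Klrc2, which were higher than 53.8%, 33.1% and 12.4% of the genes of their level.

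**Figure D3:**
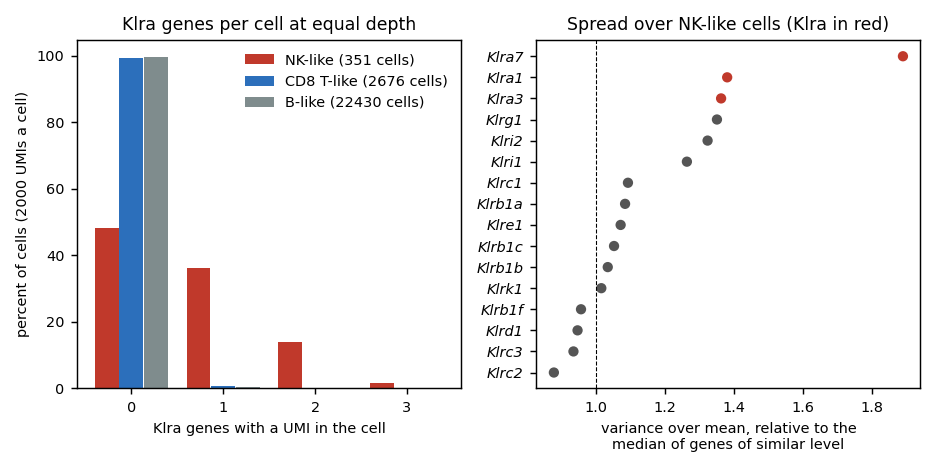
Left, percent of cells (vertical axis) with a given number of Klra genes (horizontal axis) at 2000 UMIs a cell in NK-like, CD8 T-like and B-like cells. Right, variance over mean of each member in NK-like cells relative to genes of similar level, with Klra genes in red and Klra7 highest, at 1.89.

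Pairs of Klra genes were counted in the same cell and set against what their shares predict. Klra3 and Klra7 were found together in 24 of the 351 thinned NK-like cells against 28.0 expected from their shares within each sample, a ratio of 0.859 (counting interval, 0.550 to 1.28). The ratio was 0.659 (0.214 to 1.54) for Klra3 with Klra1 and 1.35 (0.497 to 2.95) for Klra7 with Klra1, and the median of the 3 pairs was 0.859. It was 1.10 without thinning, where the ratio of Klra7 with Klra1 was 1.59, and 1.19 with no upper UMI limit, so it fell on either side of 1. With NK-like cells picked by 2 or 3 NK markers in place of clusters, gates that took in other classes, it was 3.18 and 1.45. Pairs among Klrd1, Klrk1, Klre1 and Ncr1 gave a median of 1.04, and all 120 pairs of members with at least 50 UMIs gave 1.01. The intervals of all 3 pairs span 1 in the NK-like class of the clusters, so neither exclusion nor joint use was detectable there at this depth.

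In the CD8 lineage the family was used sparsely. Klrd1 led in CD8 T-like cells at 52.5 CPM and Klrk1 followed at 31.5. A cluster of 994 cells, in which 8 of 12 genes of the CD8 memory list were raised, was called memory-like. The other 5073 CD8 T-like cells, in 5 clusters that raised at most 3 memory genes, were called naive-like by default, as none of these clusters raised more than 1 of the 9 genes of the CD8 naive list. Cd4 stood at 90.5 CPM in naive-like and 9.89 CPM in memory-like cells, and the effect of this Cd4 signal on Klr levels was not tested. Beside 32.4 CPM in CD4 T-like cells, summed Klr levels were 241 CPM in memory-like and 91.1 CPM in naive-like cells, a ratio of 2.64. The samples were unequal in these cells, as 948 of the 994 memory-like cells came from samples named CVS and 3916 of the 5073 naive-like cells from samples named YD. Within the 10 samples with at least 30 cells of both, all named CVS, the ratio was above 1 in all 10, from 1.11 in CVS_C_1 to 9.42 in CVS_S_1, with a median of 2.92. Both ends rest on few Klr UMIs, 9 in memory-like against 8 in naive-like cells of CVS_C_1 and 16 against 1 in CVS_S_1. Memory-like cells were higher for Klrc1 (35.0 against 4.15 CPM), Klrk1 (68.0 against 23.5), Klrc3 (15.2 against 1.26), Klrb1f (15.7 against 4.97), Klrc2 (13.2 against 1.81) and Klrd1 (77.0 against 47.1). These single-gene values are pooled over the unequal samples and were not compared within samples. Klra genes stayed at or below 2.47 CPM in both.

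A further cluster of 991 cells, led by Gzmk and Ccl5, carried 9 of 10 CD8 T cell markers but stayed unnamed because NK markers were raised as well. It had the highest Klr level of the CD8 side, at 508 CPM, with Klrd1 at 105, Klrk1 at 84.3, Klrg1 at 83.1, Klrb1f at 81.2 and Klrc1 at 54.6 CPM. Klrg1 was thus near its NK-like level of 90.6 CPM there, while memory-like cells had 1.24. Klra3 stood at 2.42 and Klra7 at 3.64 CPM in that cluster, and Ncr1 at 8.49, far under the NK-like levels. Among the named classes other than NK-like cells, Klrg1 was highest in regulatory T cell-like (Treg-like) cells, at 27.2 CPM, with 7.55 to 51.4 CPM over 14 samples.

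Innate-like T cells of the other samples were few. The class held 247 cells at 158 CPM, with Klrk1 highest at 63.3 CPM. In its cluster of 198 cells led by Scart2 and Il23r the sum was 198 CPM with Klrk1 at 81.6, and in 49 cells led by Zbtb16 and Tmem273 it was 77.8. A cluster of 77 cells led by Prdm16 and with Trdc, Trgc4 and Cd160 among its leading genes, which took no class name, held 1600 CPM. In these 77 cells Klri1 stood at 640 CPM, found in 55.8% of them, Klre1 at 181, Klrd1 at 111, Klrc1 at 107, Klra3 at 97.4 and Klra5 at 60.3 CPM. Klri1 was thus above its NK-like level of 195 CPM, and 17 of 19 cells with a Klra UMI also had a CD3 UMI. A further cluster of 438 cells led by Atp8a2 and Zbtb16, unnamed between CD4 T and innate-like markers, had 248 CPM with Klrk1 at 68.4.

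Among the named classes, several members were highest outside lymphocytes. Klri1 stood at 302 CPM in 1107 dendritic-like cells and had a UMI in 48.4% of them, with 223, 277 and 385 CPM as lowest, median and highest of the 15 samples with at least 30 such cells. Its partner Klre1 stood at 1.75 CPM there and was at 0 in 11 of the 15 samples, and Klri2 stood at 21.8 CPM. Klra2 (Ly49B) was highest in macrophage- or monocyte-like cells at 83.8 CPM and reached 39.97 in neutrophil-like cells. Klra17 (Ly49Q), a receptor described on plasmacytoid dendritic cells, stood at 74.0 CPM in plasmacytoid dendritic-like and 72.0 in neutrophil-like cells, against 1.02 in NK-like cells. Over samples with at least 30 cells of the class, Klra2 ran from 50.2 to 173 CPM (16 samples) in macrophage- or monocyte-like cells, and Klra17 from 15.3 to 108 CPM (7 samples) in plasmacytoid dendritic-like and 15.2 to 146 CPM (16 samples) in neutrophil-like cells. None of these samples was at 0. Klrb1f led in mast or basophil-like cells (31.4 CPM), CD4 T-like cells (9.00) and B-like cells (3.404). Klrk1 led in DP-like (5.72), plasma cell-like (2.85), erythroid-like (0.851) and proliferating cells (7.07), all low levels.

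The thymus of Parse WT gave the family a narrow place. In the lobes tenxP_1 to tenxP_4, 608 innate-like thymocytes held 336 CPM, with 525, 299, 332 and 337 CPM in the 4 lobes, against 3.33 CPM in the CD4 and CD8 double-positive (DP-like) majority. The innate-like level depended on the processing, as its lobe median of 334 CPM was 59.1 with no doublets left out, 819 with 30% left out and 202 with no upper UMI limit. No DP-like lobe exceeded 4.15 CPM, and the lobe tenxP_1, highest for innate-like cells, gave only 36 such cells. Klrk1 was the leading member at 58.7 CPM. In CD8 single-positive (SP-CD8-like) thymocytes the sum was 19.1 CPM, 13.9 of it Klrd1. Dendritic-like cells of these lobes held 150 CPM, with Klrk1 at 56.1 and Klrb1b at 32.7. Klri1, at 302 CPM in dendritic-like cells of the other samples, was far lower here. It ran from 6.63 to 30.7 CPM over the 3 lobes with at least 30 dendritic-like cells. The 70 plasmacytoid dendritic-like cells of these lobes held 185 CPM, with Klra17 at 146. In Parse Mini the leading member of 84 plasmacytoid dendritic-like cells was not Klra17 but Klra2, at 47.4 CPM.

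Innate-like thymocytes fell into 2 clusters that differed in Klr level. In 477 cells led by Zbtb16, the factor of innate-like T cells, the lobes had 782, 395, 400 and 461 CPM, and in 131 cells led by Scart2 and Sox13, genes of gamma delta T cells that make interleukin 17, they had 0, 0, 0 and 13.5 CPM. In Parse Mini the Zbtb16 cluster (206 cells) had 530, 488, 813 and 773 CPM and the Scart2 cluster (52 cells) 8.74 CPM over all lobes, 3 UMIs in all. A CD3 UMI was found in 76.4% (67.9% to 83.6%) of the 123 WT Zbtb16 cells with a Klra UMI and in 73.7% of the 354 without. In Parse Mini the shares were 73.3% of 60 and 64.4% of 146, while in NK-like cells of the other samples, which were shallower, they were 9.23% and 12.2%. Thymic classes that should lack CD3 also held such UMIs. Thinned to 2000 UMIs, 55.5% (50.3% to 60.6%) of 375 WT Zbtb16 cells had a CD3 UMI, beside 42.5% (36.4% to 48.9%) of 254 B-like, 42.9% (29.7% to 56.8%) of 56 plasmacytoid dendritic-like and 27.2% (21.4% to 33.7%) of 213 dendritic-like cells, and 15.1% of 351 NK-like cells of the other samples. In Parse Mini these shares were 52.4% (44.0% to 60.7%) of 147 Zbtb16 and 30.8% (21.5% to 41.3%) of 91 B-like cells. They were 26.8% (16.9% to 38.6%) of 71 plasmacytoid dendritic-like and 16.3% (6.81% to 30.7%) of 43 dendritic-like cells. The Zbtb16 share was thus the highest of those set side by side, but a large part of it was at the background of these classes, and the interval of the WT plasmacytoid dendritic-like cells overlapped with that of the Zbtb16 cells. Ncr1, the defining NK receptor, stood at 4.13 CPM and Eomes at 5.25 in the WT cluster, against 792 CPM for Ncr1 in NK-like cells of the 6 samples above. Both are among the 18 NK marker genes, and other markers of that list were raised. In Parse Mini, Il18rap, Il2rb, Tbx21 and Cd244a were higher in innate-like than in DP-like thymocytes. Their log2 differences, from the comparison described below, were 8.87, 8.38, 5.80 and 4.15. The rest of the markers are not shown here for these cells.

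The naming of these cells depended on the processing. When no doublets were left out, 350 of the 608 cells fell into a thymic cluster named NK-like, with 543 CPM, and 73 were still innate-like, with 50.3 CPM, Il23r at 861 CPM and a Klra UMI in 0 of 73 cells, which at 3 counts allows a share of cells with such a UMI of up to 4.11%. At double the clustering resolution 414 of the 608 were named NK-like. The 350 cells had a CD3 UMI in 75.8% of those with a Klra UMI.

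**Figure D4:**
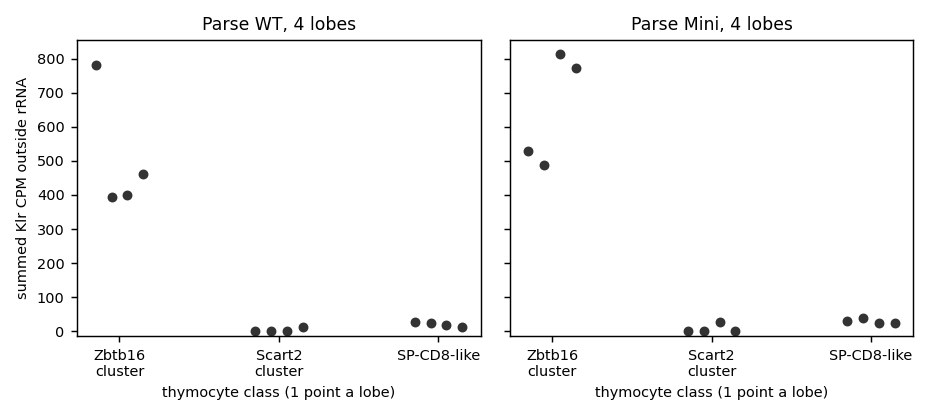
Summed Klr CPM (vertical axis) in each thymic lobe (1 point a lobe) of Parse WT (left) and Parse Mini (right) for the Zbtb16-led cluster, the Scart2-led cluster and SP-CD8-like cells. All Zbtb16 points lie between 395 and 813 CPM, above all points of the other classes.

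The make-up of the Klra UMIs differed between innate-like thymocytes and NK-like cells. The NK-like cells came from the other samples, whose strain, tissue and age are not labelled. Cell class therefore cannot be told apart from strain, tissue or sample in this comparison. Klra3 and Klra7 gave 53.1% and 32.0% of 1211 UMIs in NK-like cells, and 10.98% (8.15% to 14.4%) and 5.97% (3.90% to 8.68%) of 419 in WT innate-like thymocytes. There Klra1 (22.2%), Klra9 (20.3%) and Klra5 (19.6%) led. In Parse Mini Klra9 led at 29.7% (24.2% to 35.7%) of 259 UMIs, followed by Klra7 at 22.01%, Klra3 at 14.7% and Klra1 at 12.7%. Klra7 was uneven over the Mini lobes, at 18.7, 4.14, 93.6 and 56.5 CPM, and in the WT lobes it lay between 0 and 9.42 CPM. Of Klra-positive cells, 46.3% of 123 in the WT cluster and 51.7% of 60 in the Mini cluster had 2 or more Klra genes, against 28.1% of 520 NK-like cells. Their median depths were 4054, 3511 and 1837 UMIs, so this last comparison is not at equal depth, and UMIs of 1 cell are not independent.

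**Figure D5:**
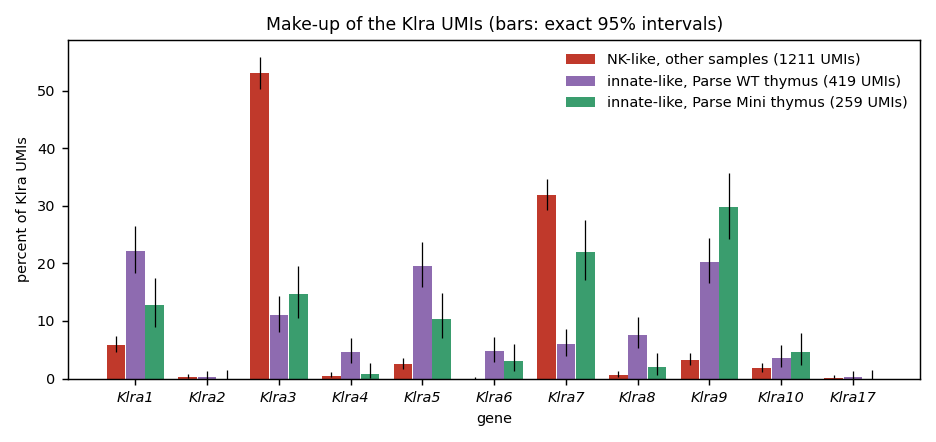
Percent of the Klra UMIs (vertical axis) contributed by each Klra gene in NK-like cells of the other samples and in innate-like thymocytes of Parse WT and Parse Mini, with exact 95% counting intervals. Klra3 and Klra7 make up most of the NK-like bars, while Klra1, Klra5 and Klra9 are taller in WT thymocytes.

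A test was run only in the Mini lobes, whose labels name thymus and control for every cell. Innate-like and DP-like thymocytes of the same 4 lobes were compared on summed UMIs with edgeR, blocked by lobe. Of 9666 genes tested, 1832 (19%) were higher and 1498 (15.5%) lower in innate-like cells at an adjusted p of 0.05. Of the 26 members 7 passed the filter on low counts, and all 7 were higher, each in all 4 lobes. They pass that filter through the innate-like cells, so the count supports nothing by itself. Without the filter, 17 of the 26 were higher, as were 1789 (7.54%) of 23734 genes.

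Klrd1 stood at 41.1, 16.5, 32.1 and 45.9 CPM in innate-like cells of T-1-A, T-1-B, T-2-A and T-2-B and at 0 in DP-like cells of all 4, with a fitted log2 difference of 9.32 ± 0.74 (SE) and an adjusted p of 2.88e-12 by edgeR's quasi-likelihood test. Klrk1 had 48.6, 70.3, 72.2 and 70.7 CPM, and at most 0.293 in DP-like cells, with a log2 difference of 8.63 ± 0.52 (adjusted p = 5.14e-16, edgeR). Klra9 had 82.2, 45.5, 58.8 and 77.7 CPM and a log2 difference of 8.20 ± 0.49. In each of these, innate-like and DP-like lobes did not overlap. With 0 to 3 UMIs in DP-like cells this was close to given, and the share of all genes without overlap was not counted. The remaining 4 were Klrb1c (log2 difference 8.05), Klra1 (7.82), Klra3 (7.72) and Klrc2 (7.51). Fitted differences of genes at 0 in DP-like cells depend on the prior count and are no bound. Each SE was taken as the log2 difference divided by the root of its F value, so it is approximate and has the same limit. Lobes of 1 mouse are not independent and the classes were built from the same cells, so these p-values are too small. The members also passed the filter through the innate-like cells, which largely set their direction, so the p-values support nothing by themselves.

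Adaptors, other receptors and ligands were read from lists chosen for the pathway, beside 5.7% higher and 6.36% lower over all genes. Of 20 tested genes of the adaptor and signalling list, 8 were higher and 2 lower in NK-like than in CD8 T-like cells of the 6 samples, with a median fold of 1.62. Sh2d1b1 (EAT-2) was highest at 81.3-fold, followed by Tyrobp, the DAP12 gene, at 73.2-fold, and Fcer1g at 41.5-fold. Tyrobp and Fcer1g are among the markers that named the NK-like class, so their direction was fixed by the naming, and of the other 18 genes 6 were higher and 2 lower, with a median of 1.41. At the other end Plcg1 was lower at 0.102-fold and Lat at 0.202-fold. Hcst, the DAP10 gene, stood at 1.08-fold. Of 17 tested other NK cell receptors 11 were higher and 1 lower, with a median of 6.50, from Ncr1 at 616-fold to Slamf6, which was lower at 0.309-fold. Ncr1, Cd244a, Il2rb and Il18rap are such markers too, and of the other 13 genes 7 were higher and 1 lower, with a median of 2.69. Of 10 tested ligands of the receptors none was higher and 2 were lower, with a median of 0.738, and at 10 genes a count of 0 is near the share over all genes. The ligand folds ran from 0.435 for H2-T24 and 0.455 for Clec2i, both lower, to 1.45 for Ulbp1, which had no call. H2-K1 and H2-D1, the classical MHC class I genes read by Ly49 receptors, stood at 697 and 768 CPM in NK-like cells, and Clec2d, a ligand of NKR-P1 receptors, at 196. Of the CD8 memory list 8 of 11 tested genes were higher in NK-like cells and of the CD8 naive list 7 of 9 were lower. The memory list ran from Ccl5 at 62.6-fold to Ly6c2, lower at 0.469-fold, and in the naive list Dapl1 was lower at 0.0239-fold. Much of this was set by the naming of the classes, as Ccl5, Nkg7, Eomes, Il2rb and Tbx21 are NK-like markers and Lef1 a CD8 T-like marker, and without them 3 of 6 memory genes were higher and 1 lower, and 6 of 8 naive genes were lower.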

How the data were processed

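The authors deposited, for each Parse experiment, UMI counts per cell and gene as a sparse matrix, with a table of cells and a list of genes. Per the study's methods split-pipe was run on each sublibrary against an Ensembl mm10 reference and the sublibraries were combined. Its version was not given in the sources used here. From each cell table only the sample, barcode and UMI count columns were used, and 8 columns of other values were not. The members and all gene lists were chosen with earlier results of these data known.

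Each cell kept had between 500 and 25000 UMIs, no more than 15% of them mitochondrial, and the 5% of cells of each sample with the highest simulated-doublet score were left out. CPM was computed over UMIs outside Rn18s-rs5, mt-Rnr1 and mt-Rnr2. Clusters used 3000 variable genes without the 26 members, 30 principal components centred per sample and 15 neighbours. Leiden (igraph 0.11.9) was run at resolution 1 for the other samples, 1.5 within lymphoid cells and 2 for thymus. Median depth per sample ran from 1118 to 5973 UMIs outside ribosomal RNA in the other samples and from 1893 to 2889 in the thymic lobes. Intervals are exact, limits for a count of 0 are set at 3 counts, and both cover counting error only.

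All members with at least 50 UMIs in NK-like cells are described singly, with the leading member of each other class and up to 3 genes at either end of each list. Hcst, H2-K1 and H2-D1 are named outside that rule and were chosen after their values were seen. A sample entered a comparison with 30 cells of each class. Parse Mini was tested with edgeR 4.0.16 (quasi-likelihood, TMM, filterByExpr, lobe as a block, at least 10 cells of each class, Benjamini-Hochberg over all genes). The block rests on both classes coming from the same lobe, and the deviations of the 2 classes correlated by 0.0392 to 0.102. On simulated counts for 9237 genes this test recovered 12% of 2-fold and 96% of 4-fold changes. DESeq2 1.42.0 was an alternative. Coordinates, coding sequences and shared words come from GENCODE M21, which holds 52029 of the 57010 genes, and promoters from RefSeq.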

Additional observations from a re-analysis of the deposited data

Results flagged for a closer look

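In 45 groups of 4 to 10 samples, 7 values stood apart from the others of their group by Dixon's criterion, which chance meets in about 1 in 20 groups. The 6 other samples share no labelled condition, so for them the criterion only describes how far a value lay from the rest. In NK-like cells these were Klrb1f in YD_C_5 (329.3 CPM, others 146.4 to 206.3), Klri2 in YD_C_3 (335.2, others 216.4 to 254.2), Klre1 in CVS_C_1 (209.1, others 367.9 to 455.6) and Klra3 in CVS_C_1 (104.5, others 329.8 to 417.1). CVS_C_1 had 31 NK-like cells with a median of 983 UMIs. In innate-like thymocytes of Parse WT they were the summed Klr level of tenxP_1 (525.4 CPM, others 299.3 to 336.5) and Klre1 of tenxP_1 (38.56, others 6.405 to 9.418), where tenxP_1 gave 36 such cells. In Parse Mini it was Klrk1 of T-1-A (48.56 CPM, others 70.32 to 72.19).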

How the results depend on the processing

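The count of 15 members higher in NK-like than in CD8 T-like cells was within 1.5 times of its value under 16 of 17 alternatives, from 14 to 15 with each sample left out. Picking NK-like cells by 2 NK markers without CD3 and B cell genes, in place of clusters, gave 6 members, a Klra share of 21.1%, 0.199 Klra genes a cell, a co-detection ratio of 3.18 and a relative variance over mean of 1.79. That gate took in 1119 macrophage- or monocyte-like and 548 neutrophil-like cells among 4263. A gate of 3 markers, chosen after seeing this, gave 10 members and 25.5%, 0.387, 1.45 and 1.79 for the rest. The 2 gates were read over 16 and 14 samples, against 6 for the clusters, so their counts and medians are not over like samples. The share of all genes called under each gate was not counted. Each alternative thins the cells in its own random draw. The number of Klra genes a cell, a median of 0.737 over samples with at least 10 thinned cells in a draw other than that of the mean of 0.692, was 0.647 with Klr genes among the clustering features and 0.479 at 1000 UMIs a cell. The relative variance over mean, a median of 1.38 over the 3 Klra genes with enough UMIs, was 1.74 with no upper UMI limit and 1.78 at double the resolution. With each sample left out the share ran from 54.5% to 54.8%, the number from 0.711 to 0.833, co-detection from 0.869 to 1.10 and the variance from 1.42 to 1.81. CVS_C_1, with 9 thinned cells, was already outside the median of 0.737, so the 0.833 without it reflects the draw. The memory-like to naive-like ratio, 2.64, was 2.71 with no doublets left out and 2.18 with 30% left out. It was 2.41 with no upper UMI limit and 2.75 with CPM over all UMIs.

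In thymus the summed Klr level of WT innate-like cells, a lobe median of 334 CPM, was 59.1 with no doublets left out, where most of these cells were named NK-like, 819 with 30% left out and 202 with no upper UMI limit, and 332 to 337 with each lobe left out. The 7 members called in Parse Mini (19% of all genes) were 4 with 30% of cells left out as doublets (4.95% of all genes) and 17 without a filter on low counts (7.54%). With each lobe left out the count was 6 to 9, beside 15.9% to 18% of all genes. Without the lobe as a replicate block it was 7 (19.3% of all genes), and no paired result changed its call. The innate-like cells without the Scart2-led cluster, an alternative chosen after seeing the data, gave 9 (17.1% of all genes). Where values moved, the cause was not tested. Low depth limits the Klra shares, and members with few UMIs cannot be compared.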
